A study of Mus musculus with 288 samples.

Results

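Ribosomal protein genes encode the proteins that, with ribosomal RNA, make up the large (Rpl, Rplp) and the small (Rps, Rpsa) subunit of the cytoplasmic ribosome. Their members here are the genes whose symbol starts with Rpl or Rps and a digit, with Rplp or with Rpsa, without the kinases Rps6k and without genes named as pseudogenes by -ps. This rule found 92 of 46078 mouse genes, 54 of them named for the large and 38 for the small subunit. The annotation calls 86 protein coding and 6 pseudogenes, and Rps19bp1, which the rule also takes in, is named for a protein that binds a ribosomal protein and is not a subunit itself. Symbols were matched to the gene identifiers of the deposited table from reference annotation (45143 of 46078 had one), and no measured value chose a member.

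The cells came from GLU-Venus mice, in which the glucagon promoter drives a fluorescent protein and so marks cells that transcribe the proglucagon gene Gcg. Cells of the upper small intestine of 3 male mice aged 20 to 21 weeks were sorted singly into plates and sequenced by Smart-seq2, a full-length cDNA method with neither strand nor molecular identifiers. The labels call every cell an L-cell, a gut endocrine cell that makes proglucagon peptides, and give its pool of 96 cells (SLX-11175, SLX-11179 or SLX-9703) but neither its mouse nor its fluorescence. By the study's methods the mice sequenced at low depth also gave nonfluorescent control cells, so that the marker genes below, and not the label, say what a cell holds. All groups share genotype, tissue and age range, and the labels name no treatment.

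Of 288 cells, 250 had at least 20000 reads on mouse genes and at most 20% of them on mitochondrial genes (75 in pool SLX-11175, 87 in pool SLX-11179 and 88 in pool SLX-9703, the order kept throughout). Their median depth was 52571, 70726 and 1975706 reads on mouse genes, so that SLX-9703 is the deep pool and the other two are the shallow pools. They were split by the level, in CPM (a gene's reads scaled to a fixed total per cell), of 4 genes that are not members: Gcg, the incretin gene Gip, the protease inhibitor Pzp, which marks a subset of these endocrine cells, and the hormone gene Cck. The Gcg 10000+ class had 16, 18 and 19 cells in the pools in the same order, Gip 10000+ had 10, 5 and 10, Pzp 100+ had 14, 22 and 28, and cells past none of these cuts were parted at 1000 CPM of Cck into 12, 18 and 24 cells above (Cck 1000+ only) and 20, 23 and 6 below (Cck under 1000). Another 5 cells passed several cuts and were left out. The labelled cell type was checked against a list of 15 endocrine genes (such as Chga, Scg2 and Neurod1), of which 14 or 15 had reads in each class and pool. Their summed level was from 4983 to 65639 CPM in the Gcg, Gip, Pzp and Cck 1000+ only classes and from 638 to 1284 CPM in Cck under 1000, where a list of 17 immune genes, antibody genes among them, reached 452851 and 372297 CPM in the shallow pools. That class is therefore called by its rule and not by the label.

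Cells make the ribosomal proteins in matched amounts, and dividing cells, such as those of the intestinal crypt, need many new ribosomes. Their mRNAs are known for a run of pyrimidines at the 5′ end (a terminal oligopyrimidine or TOP motif), through which mTORC1 and Larp1 set their translation together with that of several translation factors. The family has also left many processed copies in the genome. A read that fits a gene and its copy equally does not tell which it came from, and how such reads were counted here is not given in the sources used here.

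The start region of 5 members that differed between classes and have an entry in the RefSeq promoter table (build GRCm38.p6) is shown here for that reason, from 10 bases before to 20 bases from the annotated start. Capitals mark the first run that begins with C within 10 bases of the start and goes on for at least 4 more pyrimidines, and lower case throughout means that no such run begins within 10 bases of the start. The regions are chr7:45128726-45128755 (minus strand) for Rpl13a, chr7:3704031-3704060 (plus) for Rps9, chr7:24884903-24884932 (plus) for the last of 3 annotated starts of Rps19, chr9:64173377-64173406 (plus) for Rpl4 and chr5:115559457-115559486 (plus) for Rplp0.
Rpl13a: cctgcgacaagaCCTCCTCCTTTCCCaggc
Rps9: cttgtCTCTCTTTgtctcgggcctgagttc
Rps19: agcggggtgtggagggCTCTCCCacgcggt
Rpl4: tttcctgtgggagcagccgggtagagagga
Rplp0: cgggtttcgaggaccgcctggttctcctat
Rpl32, which differed too, is named only. Of 67 members with a window, 40 (59.7%) held a run in at least 1 of their windows, against 9297 of 27025 genes in all (34.4%). The share was 7 of 14 for translation factors known to carry the motif, 31 of 69 (44.9%) for mitochondrial ribosomal proteins and 14 of 40 (35%) for ribosome biogenesis genes. An annotated start can lie some bases from the one a cell uses, and a window without a marked run says only that none begins within those 10 bases.

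Ribosomal protein mRNAs took a small share of the reads. Of the reads without hormone genes, which were left out because a hormone can take most reads of a cell, the members took a median of 0.212% per cell in pool SLX-11175 (lowest 0, highest 1.59%), 0.22% in pool SLX-11179 (0.00256% to 1.91%) and 0.371% in the deep pool (0.00603% to 1.53%). At 20000 reads per cell, drawn at random from each cell, these medians were 0.21%, 0.231% and 0.379%. All 92 members had a read somewhere, and 586688 reads in all fell on them. A cell of the deep pool had reads on a median of 78.5 members, and of 29 and 32 in the shallow pools. At 20000 reads per cell these counts were 28, 16 and 17.

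Few members carried most of these reads. Rpl4, a large subunit protein, held 12.8% of them, Rps3 8.46% and Rpl8 7.34%. The 4 leading members held 34.2%, and the 10 leading members held 53.8%. Per kilobase of transcript, the highest was Rpl8, with 208, 259 and 381 CPM per kb in the 3 pools (283 ± 89, SD, n = 3 pools). Rpl4 had 243 ± 112, Rps14 213 ± 58.7 and Rpl32 174 ± 54.7 CPM per kb. Each of these was highest in the deep pool, and neighbours in this order differed by less than the SD over pools of the higher one. Of the stalk proteins, which hold elongation factors to the ribosome, Rplp1 had 143 ± 49.7, Rplp0 103 ± 38.1 and Rplp2 67.6 ± 24.6 CPM per kb, while Rpsa, also known as a laminin receptor, had 5.55 ± 3.01.

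The 5 lowest members were Rpl10l, Rpl39l, Rps12l1, Rpl3l and Rpl23a. Rpl10l, Rpl39l and Rps12l1 had a single read each in the 250 cells, all in the deep pool, and Rpl3l had 24 reads in 2 cells. Rpl10l and Rpl39l are known from testis and Rpl3l from striated muscle, and from 92.4% to 100% of their sequence is found in no other gene. Rpl23a, a protein of every ribosome, had only 65 reads (0.471 ± 0.45 CPM per kb). Only 14.3% of the 50-base stretches of its transcript are found in no other gene, and another annotated gene covers 55.4% of its exons. Whether this lowers its count was not tested.

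Levels moved with this uniqueness of sequence across members. Over 30 members with under 25% of stretches unique, the median was 8.15 CPM per kb (0.00666 to 39.2), over 29 members from 25 to 50% it was 20.3 (2.31 to 143), over 18 from 50 to 75% it was 43.9 (4.07 to 213), and over 15 at 75% or more it was 40.9 (0.0026 to 283). Spearman's rho was 0.404 over the 92 members and 0.542 over 89 without the tissue-restricted Rpl10l, Rpl39l and Rpl3l. These are values across genes, which share libraries and are not independent. The order of levels was nearly the same in each pool (rho from 0.962 to 0.969), and large and small subunit genes had like medians (20.3 and 20.6 CPM per kb). Whether uniqueness sets these levels was not tested. A difference of a member between classes sets the same sequence against itself, but whether reads shared with its copies differ between classes was not tested.

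**Figure D1:**
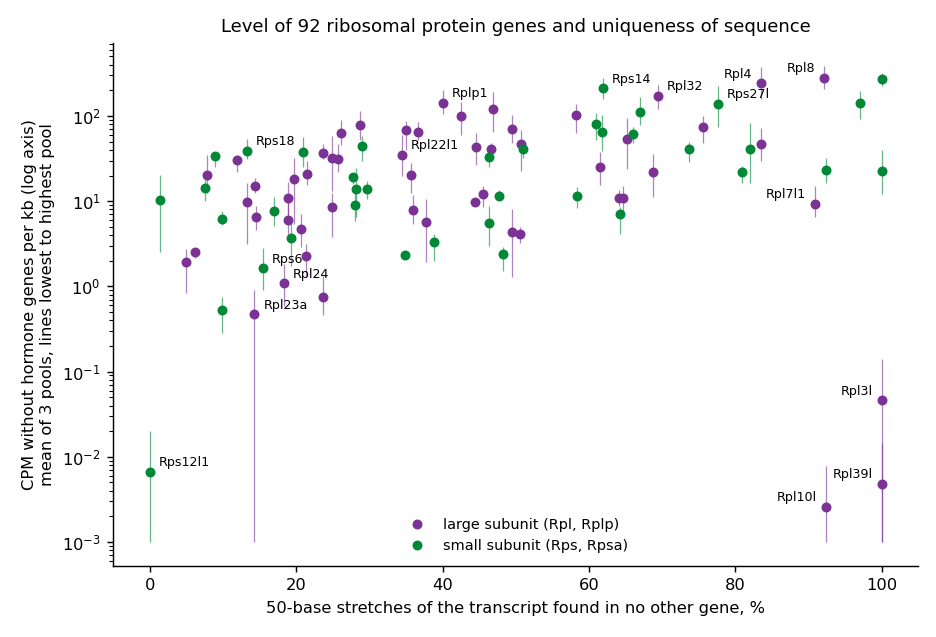
Level of each of the 92 members (vertical, CPM without hormone genes per kb of transcript, log axis, mean of 3 pools) against the share of its 50-base stretches found in no other gene (horizontal, %). Lines run from the lowest to the highest pool (a line that ends at 0.001 reaches 0); the points rise from left to right, with Rpl10l, Rpl39l and Rpl3l at the lower right.

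Paralogs, which can replace a subunit protein or have taken other roles, were detected at listed levels from a single read to over 100 CPM per kb. Rps27l, a copy of Rps27 known as a p53 target, had 139 ± 75.3 CPM per kb, Rpl36al 65.3 ± 17.8, Rps4l 40.9 ± 37.3, Rpl22l1 35 ± 21.2 and Rpl7l1 9.37 ± 4.89 (mean ± SD, n = 3 pools). Rpl22, of which Rpl22l1 is a paralog, had 73.3 ± 25.6 (75.5% of its stretches are unique, and 34.4% of those of Rpl22l1), and per length Rpl22l1 was at 0.407, 0.361 and 0.596 of it in the 3 pools. Rps4x, the X-linked small subunit gene, had 19 ± 2.77, and the pseudogenes Rpl6l and Rps12l1 had 0.758 ± 0.485 and at most 1 read. For Rps27 itself only 1.35% of stretches are unique, so that no ratio to it is given.

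The hormone classes were compared by the summed reads of their cells in each pool. In Gcg 10000+ cells the members took 0.432%, 0.286% and 0.485% of the reads without hormone genes in the 3 pools (0.401 ± 0.103%, SD, n = 3 pools). In Pzp 100+ cells they took 0.339%, 0.396% and 0.417% (0.384 ± 0.0403%). In Gip 10000+ cells they took 0.156%, 0.251% and 0.316% (0.241 ± 0.0804%), in each pool the lowest of the 3. Behind the lowest of these values lie 466 reads, with an exact 95% binomial interval from 0.142% to 0.171%, which covers counting error alone.

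Between Pzp 100+ and Gcg 10000+ cells the log2 ratio of the shares was -0.35, 0.47 and -0.22 in the 3 pools (-0.03 ± 0.44), without a common direction. The positive value rests on 1 Pzp 100+ cell with a share of 1.60% and over 1000 CPM of stem genes: without it the Pzp share of pool SLX-11179 was 0.296%, the ratio there 0.05 and the mean ratio -0.17 ± 0.20. Gip 10000+ cells were lower than Gcg 10000+ cells by 1.47, 0.19 and 0.62 on the log2 scale (mean ratio -0.76 ± 0.65) and lower than Pzp 100+ cells in every pool too (-0.73 ± 0.36). With 3 pairs no exact two-sided test can reach p = 0.05, and no test was made of these shares. Large and small subunit shares went together: Gip 10000+ cells had 0.139 ± 0.0525% on large and 0.102 ± 0.0308% on small subunit genes, against 0.234 ± 0.0622% and 0.167 ± 0.0419% in Gcg 10000+ cells. With the classes cut on 1 gene at a time, so that they share cells, the Gip share was still the lowest of the 3 in pools SLX-11175 and SLX-9703 (0.215% and 0.347%), but in pool SLX-11179 it was 0.321% against 0.306% for Gcg.

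**Figure D2:**
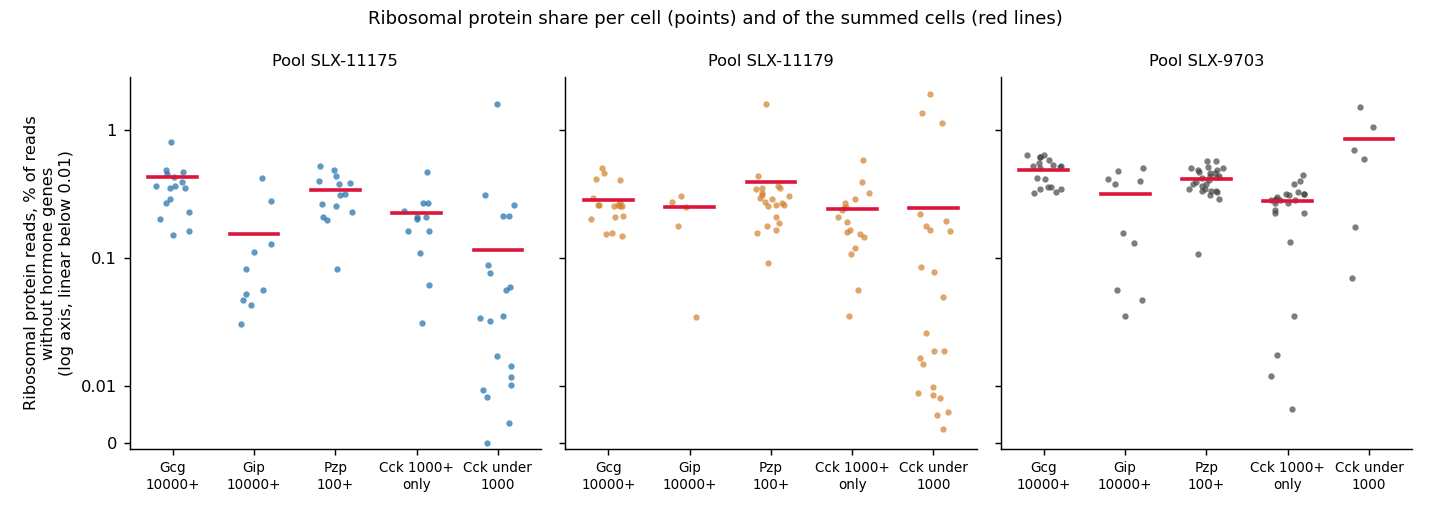
Share of reads on the 92 members in each of the cells in 5 classes (points; %, of reads without hormone genes; log axis, linear below 0.01) in the 3 pools, and the share of the summed cells of a class (red lines). Gip 10000+ cells run from 0.0306 to 0.425% in pool SLX-11175, from 0.0349 to 0.307% in pool SLX-11179 and from 0.0355 to 0.507% in the deep pool, and Cck under 1000 cells reach from 0 to the highest shares.

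The reads of a gene that is not a member moved with these shares. Slc34a2, a phosphate transporter gene, was listed with 16 to 61.7% of the reads without hormone genes in the 15 class sums, and CT010467.1, a ribosomal RNA gene, with 4.43 to 12%. In Gip 10000+ cells Slc34a2 took 61.7%, 36.1% and 32.4%, in Gcg 10000+ cells 38.9%, 42% and 16.5%. Over cells the member share was lower where the Slc34a2 share was higher (Spearman's rho -0.671, -0.622 and -0.58 in the 3 pools, 75, 87 and 88 cells) and higher where more genes had a read (0.845, 0.748 and 0.647). Cells of a pool share library preparation, and both shares have the same total. Per read of the spike-in RNA, the class medians of Slc34a2 were 7.2 to 12.2 and 6.81 to 10.3 in the shallow pools and 0.436 to 0.515 in the deep one. Whether the reads listed on Slc34a2 come from the cells' own RNA was not tested, nor was their part in the member shares, and they are in the total of every share above. For this reason shares were also taken without Slc34a2, CT010467.1 and antibody genes. Gip 10000+ then had 0.508 ± 0.0615%, Gcg 10000+ 0.671 ± 0.115% and Pzp 100+ 0.638 ± 0.0918%. The log2 ratio of Gip to Gcg was -0.40 ± 0.24 and negative in all 3 pools, and that of Gip to Pzp was -0.33 ± 0.39, with 0.06 in the deep pool.

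Per spike-in read, the members' median over cells was 0.0804, 0.0571 and 0.0145 in Gcg 10000+ cells of the 3 pools, 0.0927, 0.0576 and 0.0115 in Pzp 100+ cells and 0.0118, 0.0704 and 0.00283 in Gip 10000+ cells. By these medians Gip 10000+ cells were the lowest of the 3 in 2 pools and the highest in pool SLX-11179, which held 5 of them. By the ratio of summed reads Gip 10000+ cells had 0.0258, 0.0593 and 0.00412, Gcg 10000+ cells 0.0795, 0.0587 and 0.0151 and Pzp 100+ cells 0.0918, 0.0833 and 0.0109, so that in pool SLX-11179 the Gip value was then near that of Gcg and below that of Pzp. Spike-in levels differed between pools, so that only values of the same pool can be set side by side.

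No member passed the test across all genes between the hormone classes (edgeR's quasi-likelihood test on class sums, the pool as a block, TMM scaling, which sets each sum to the bulk of its genes, adjusted p under 0.05 over 11092 genes). Of the 92 members, 71 had enough reads to be tested. In Pzp 100+ against Gcg 10000+ cells 0 of 71 were called, where 0.027% of all genes were (0.018% higher, 0.00902% lower), and 0 had an unadjusted p under 0.05, where 440 of 11092 genes did. In Gip 10000+ against Gcg 10000+ cells 0 of 71 were called, against 0.46% of all genes (0.171% higher, 0.288% lower), again with 0 at an unadjusted p under 0.05, where 1359 of 11092 genes were. In Gip 10000+ against Pzp 100+ cells 0 of 71 were called, against 1.54% of all genes (0.595% higher, 0.947% lower), and 2 had an unadjusted p under 0.05, Rpl11 and Rplp0, where 1500 of 11092 genes did. DESeq2 on the same sums also called 0 in each of the 3 comparisons, where it called 72, 425 and 647 of 11092 genes. At an unadjusted p under 0.05 by DESeq2 were 0, 3 and 6 members, and 656, 1770 and 1996 genes. Counts of 0 among 71 do not show that the members' levels are equal. The comparisons share their sums and are not independent of each other.

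The fitted differences of the tested members were as follows. In Pzp 100+ against Gcg 10000+ cells the median log2 fold change was -0.09, that of all genes 0.00, and 27 of 71 were positive. Without cells of stem or cell cycle genes it was -0.24, with 18 of 70 positive, and that of all genes -0.01. In Gip 10000+ against Gcg 10000+ cells it was -0.48, with 13 of 71 positive, and in Gip 10000+ against Pzp 100+ cells -0.47, with 19 of 71 positive, while the median of all genes was -0.22 in both. Rplp0, the base of the stalk, shows the spread behind these values. It had 168, 121 and 199 CPM in Gcg 10000+ sums of the 3 pools, 132, 229 and 165 in Pzp 100+ sums, and 33.4, 75.7 and 111 in Gip 10000+ sums. The Gip values lay below all others. Its log2 fold change in Gip 10000+ against Pzp 100+ cells was -0.98 ± 0.45 (SE), with an adjusted p of 0.354. Rpl4 had 454, 265 and 615 CPM in Gcg 10000+ sums, 353, 373 and 531 in Pzp 100+ sums and 80.3, 347 and 297 in Gip 10000+ sums, which overlap the Gcg values and lie below the Pzp ones.

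By CPM alone, 20 of the 71 members had Gip 10000+ values below all 3 Gcg 10000+ values, and 22 had them below all 3 Pzp 100+ values. Over all tested genes that share was 15.3% and 17.3%. No member had Gip values above all of either class, where 2.43% and 3.06% of all genes did. In Pzp 100+ against Gcg 10000+ sums, 3 members (Rpl27a, Rplp2 and Rps15a) lay below without overlap, against 4.83% of all genes, and 0 above, against 5.68%. Of the paralogs, Rpl22l1 had 6.69, 0 and 7.75 CPM in Gip 10000+ sums and 27.9, 9.79 and 49 in Gcg 10000+ sums, but did not pass the test (log2 fold change -2.01 ± 0.98, adjusted p 0.426 by edgeR). Rps27l had 33.4, 24.1 and 58.6 CPM there against 63, 78.3 and 120 (-0.80 ± 0.48, adjusted p 0.552 by edgeR), and Rpl36al 10, 41.3 and 48.7 against 33.9, 42.7 and 52.4.

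**Figure D3:**
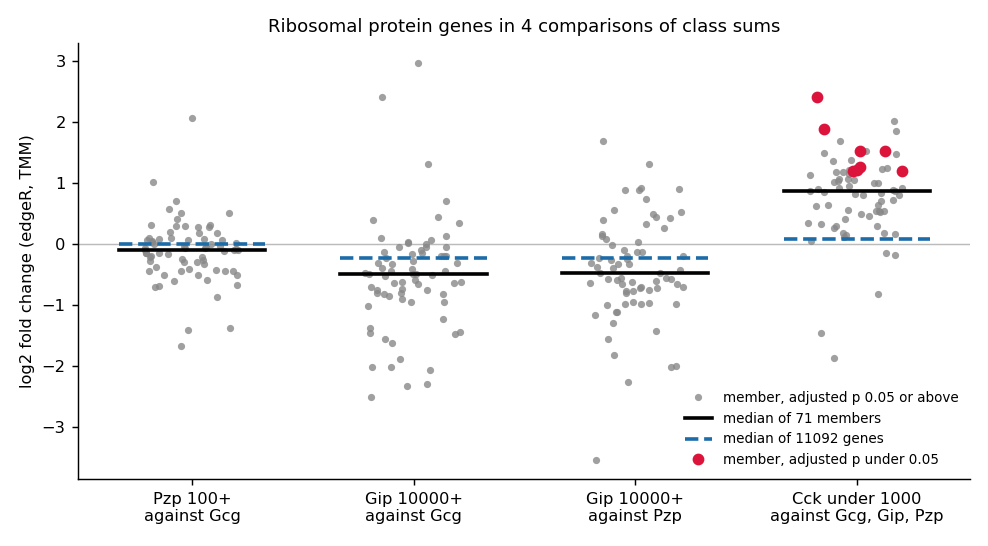
Log2 fold change (edgeR) of the 71 tested members in each of 4 comparisons of class sums (points; red where the adjusted p is under 0.05), with the median of the members (black line) and of all 11092 genes (dashed blue line). Members lie around 0 for Pzp against Gcg, mostly below it in both comparisons of Gip, and mostly above it for Cck under 1000, where 8 are red.

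Cck under 1000 cells differed from the mean of the Gcg, Gip and Pzp classes in named members. In this comparison 8 of 71 members were called, all higher, against 3.57% of all genes called higher, 2.52% lower and 6.09% in either direction. They included Rps19 (log2 fold change 2.41 ± 0.65, SE), Rpl4 (1.53 ± 0.29), Rplp0 (1.53 ± 0.33), Rps9 (1.22 ± 0.35), Rpl13a (1.21 ± 0.33) and Rpl32 (1.2 ± 0.31). The adjusted p from edgeR ran from 0.00446 for Rpl4 to 0.0462 for Rps9. Of the 71, 66 had a positive log2 fold change, the median was 0.88 and that of all genes 0.09. Without the deep pool 0 members were called, where 244 of 9741 genes were. Without pool SLX-11175 or without pool SLX-11179 it was 1 (Rpl4), where 472 of 15041 and 806 of 15034 genes were called. DESeq2 called 21 members, and 1604 of 11092 genes. When 5 cells with stem or cell cycle genes (below) and 1 cell of the Pzp class were left out, a setting chosen after seeing the data, 0 of 70 members were called by edgeR, where 592 of 10763 genes were (359 higher). Of the 70, 56 were positive, and the median was 0.51 (all genes 0.02). There 9 had an unadjusted p under 0.05, where 2146 of 10763 genes did, and Rpl4 had a log2 fold change of 1.08 ± 0.32 (adjusted p 0.0633 by edgeR). Rps19 was at 2.15 ± 0.72 (adjusted p 0.0961 by edgeR), close to its value with these cells, and Rpl32 at 0.58 ± 0.37 (adjusted p 0.425 by edgeR).

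In build mm10, Rpl4 lies at chr9:64173375-64178666, Rplp0 at chr5:115559467-115563727, Rpl32 at chr6:115805505-115808747, Rps19 at chr7:24884371-24889806, Rpl13a at chr7:45125558-45128761 and Rps9 at chr7:3703993-3706897. Other annotated genes cover 59.3% of the exons of Rpl13a and 10.3% of those of Rpl32, and reads there cannot be told apart. Mutation of RPS19 is known in human Diamond-Blackfan anaemia, and Rps9 is, like it, a small subunit protein.

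On a CPM scale whose total holds genes other than hormones, Slc34a2, CT010467.1 and antibody genes, Rpl4 had 1293, 1368 and 1838 in the Cck under 1000 sums of the 3 pools. In the 9 sums of the hormone classes it had 264 to 841, without overlap. Most of its sequence is found in no other gene. Rpl32 had 312, 309 and 321 against 108 to 266. Rplp0 had 425, 580 and 674 against 110 to 421, and Rps19 180, 144 and 67.1 against 12.2 to 67.8, so that Rps19 of the deep pool lay within the range of the others. Rpl13a had 251, 359 and 483 against 155 to 251, and Rps9 205, 236 and 383 against 88 to 256, both with overlap. On the scale with these genes kept in the total, Rpl4 had 166, 331 and 1422 CPM in Cck under 1000 and 80.3 to 615 in the hormone classes, which overlap.

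**Figure D4:**
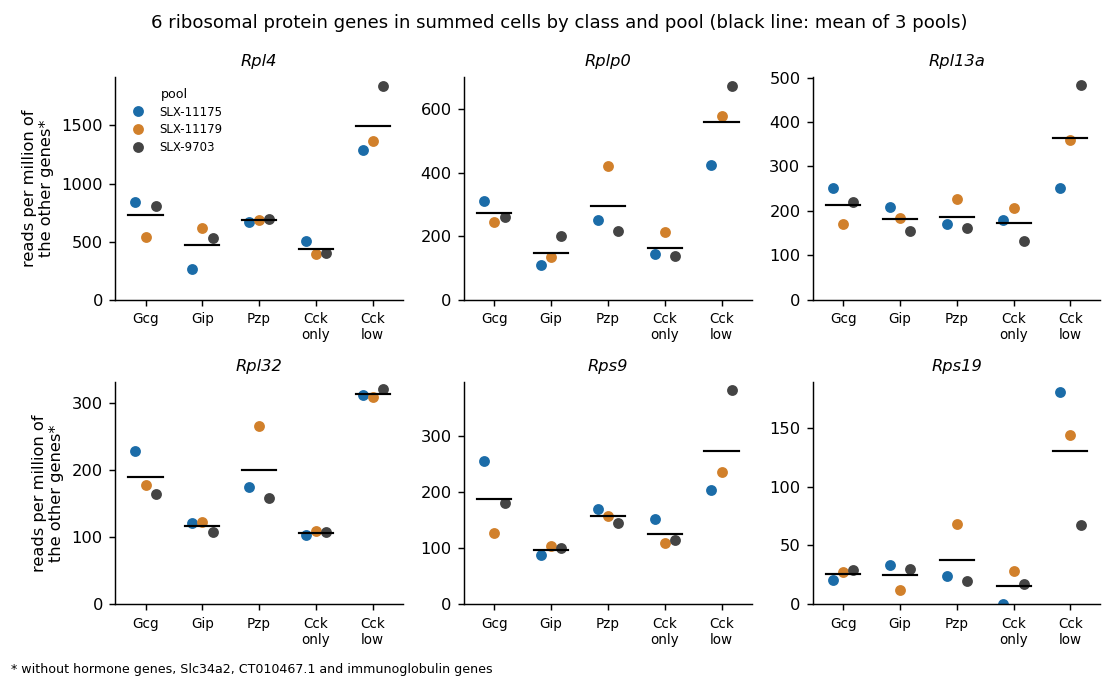
Level of 6 of the called members in the summed cells of each class (points, coloured by pool; black line, mean of 3 pools), in CPM over all genes but hormone genes, Slc34a2, CT010467.1 and antibody genes. Cck low stands for Cck under 1000 and Cck only for Cck 1000+ only; Rpl4, Rpl32 and Rplp0 have all 3 Cck low points above every Gcg, Gip and Pzp point.

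The direction of the difference depended on what was in the total. As a share of all reads without hormone genes, the members took 0.116%, 0.249% and 0.861% in Cck under 1000 cells. The log2 ratio to the hormone classes was -1.30 and -0.29 in the shallow pools and 1.11 in the deep pool (-0.16 ± 1.21). Without cells of stem or cell cycle genes it was -2.11 and -0.85 in the shallow pools and 0.36 in the deep pool (-0.87 ± 1.23). In the shallow sums of all cells 59.7% and 46.7% of the reads without hormone genes fell on antibody genes, and 0.0851% in the deep sum. Without antibody genes, Slc34a2 and CT010467.1 the members took 0.900%, 1.03% and 1.11%, and the ratio was 0.49, 0.85 and 0.94 (0.76 ± 0.24). By library size in place of TMM, the median log2 fold change of the members was -0.11, that of all genes -0.95, and 0 members were called by edgeR, where 185 of 11092 genes were called higher and 1176 lower. There 1 member and 3151 genes had an unadjusted p under 0.05. With library sizes after those genes were left out, 4 members were called, all higher, where 319 of 10617 genes were called higher and 365 lower, and 58 of 67 were positive (median 0.67, all genes -0.15). Per spike-in read, the members' median over Cck under 1000 cells was 0.00795, 0.0028 and 0.0236 in the 3 pools. This was the lowest of all classes in the shallow pools and the highest in the deep pool. By summed reads it was 0.0392, 0.0682 and 0.025, within the range of the hormone classes in the shallow pools and above it in the deep pool.

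The Cck under 1000 class was uneven from cell to cell, and its member reads came from few cells. In 5 of its 49 cells the stem list (Lgr5, Olfm4 and others) or the cell cycle list (Mki67, Mcm5 and others) reached 1000 CPM, and in these the members took 1.06 to 1.91% of the reads without hormone genes. These 5 cells, 1, 2 and 2 in the 3 pools, held 45%, 42.3% and 66.2% of the class's member reads. They were not alike in their markers. Those of the shallow pools had 1044 to 9404 CPM of the stem list and 1238 to 3516 CPM of the immune list. The 2 of the deep pool had 1.80 and 1.79 CPM of the stem list and 4048 and 4049 CPM of the cell cycle list. Their immune list was at 8231 and 8566 CPM. Which cell types these are was not tested. The one other cell of the 250 with 1000 CPM of the stem list was a Pzp 100+ cell of pool SLX-11179, with a share of 1.60%, the highest of its class. In 3 further cells of the class the enterocyte list (Fabp1, Alpi and others) reached 10000 CPM, with 0.313%, 0.698% and 1.13% on the members.

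The other cells of this class had lower shares of all reads without hormone genes, with some overlap. In 7 cells the immune list exceeded 100000 CPM, and the members took 0.0322 to 0.163%. Without Slc34a2, CT010467.1 and antibody genes these 7 cells had 0.724 to 1.38%, which overlaps the 0.706 to 1.46% of the enterocyte cells and the 1.28 to 2.79% of the 5 cells with stem or cell cycle genes. In 10 cells with 1000 CPM or more of endocrine genes the members took 0.00874 to 0.22%. In the remaining 24 cells the median was 0.0131%, from 0 to 0.596%. In 26 of the 49 cells, all in the shallow pools, at least 50% of the reads fell on Slc34a2. These 26 cells held 486 of the 2944 member reads of the class in pool SLX-11175 (16.5%) and 254 of 6931 in pool SLX-11179 (3.66%). Over all pools they held 740 of 110086, of which 100211 came from the deep pool. Groups of cells within 1 class are not replicates, so these values are a description. In the same comparison 10 of 14 enterocyte genes, 5 of 6 cell cycle genes and 8 of 8 immune genes were called higher, and 8 of 15 endocrine genes lower, by edgeR. The summed cell cycle list had 75.7, 116 and 1809 CPM in this class and 18.9 to 53.1 CPM in the others. Without cells of 10000 CPM or more of immune genes, 8 of 67 members were called, where 584 of 10788 genes were. That limit kept all 6 cells of the class in the deep pool. Their sum had 4080 CPM of the immune list, against 58.9 to 232 CPM in the other deep sums. The setting therefore cannot show whether the calls hold without cells that have immune genes. Without cells of 50% or more Slc34a2 reads, 8 of 76 were called, where 928 of 12611 genes were. Neither set of 8 held the same genes as before. Rps9 lost its call and Rpl3 gained one in the former setting, and Rps19 lost its call and Rps3 gained one in the latter. The part of the enterocyte and endocrine genes in the members' result was not tested.

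**Figure D5:**
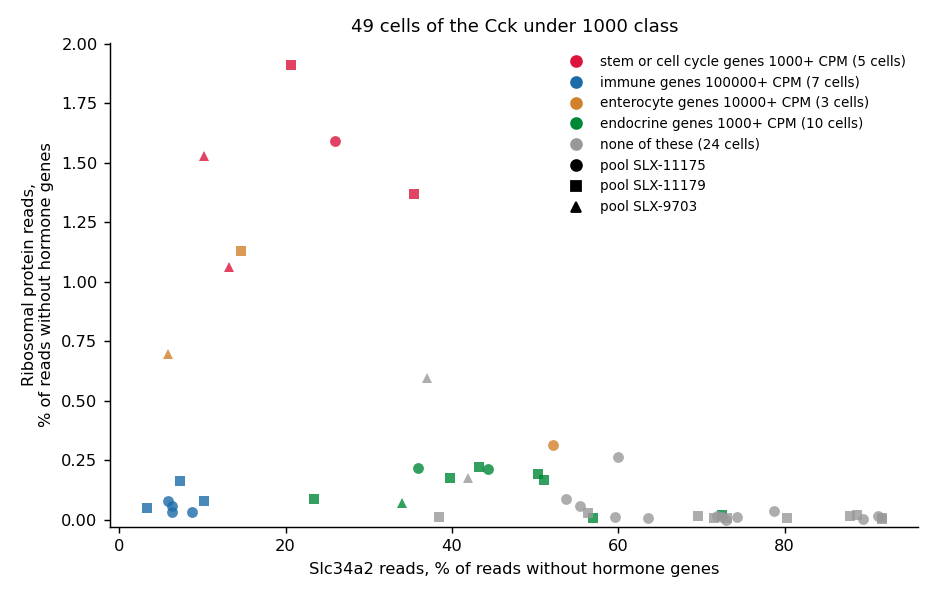
Share of reads on the 92 members (vertical, %) against the share on Slc34a2 (horizontal, %) in the 49 Cck under 1000 cells, both of reads without hormone genes. Colours give the marker list that reached the stated level and symbols the pool; the 5 cells with stem or cell cycle genes and 1 with enterocyte genes lie above 1%, and cells with 50% or more on Slc34a2 lie at or below 0.313%.

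Other genes of protein synthesis in Cck under 1000 cells were read from lists, beside which stand the 3.57% of all genes called higher and their median log2 fold change of 0.09. Of 19 tested translation factors with TOP mRNAs 1 was called, higher: Eef1b2, an elongation factor subunit (1.10 ± 0.30, adjusted p 0.041 by edgeR), and all 19 were positive (median 0.82). Of 41 ribosome biogenesis genes 2 were called, higher: Nhp2 (3.05 ± 0.75) and Nop56 (2.53 ± 0.64), which belong to small nucleolar ribonucleoproteins, and 38 were positive (median 1.18). Of 75 mitochondrial ribosomal proteins 1 was called, higher: Mrpl12 (1.91 ± 0.52), and 60 were positive (median 0.76). Of 14 growth regulators the transcription factor Myc was called, higher (3.67 ± 0.95), and 6 were positive (median -0.43). Without the cells with stem or cell cycle genes none of these lists had a called gene. There Nhp2 was at 0.37 ± 1.10 and Myc at 0.63 ± 1.75, while Mrpl12 was at 2.02 ± 0.58 (adjusted p 0.0516 by edgeR), as high as with these cells. In the 3 comparisons among hormone classes these lists had 0 called genes.

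Members with and without a pyrimidine run at the annotated start were set side by side, with no test of the difference. In Cck under 1000 against the hormone classes, the median log2 fold change was 0.88 over 31 tested members with a run (28 positive, 3 called) and 0.82 over 24 without (23 positive, 2 called). In Gip 10000+ against Pzp 100+ cells the medians were -0.37 with a run and -0.57 without. Their median levels were 26.3 and 20.2 CPM per kb over the 40 and 27 members. Among the genes shown above, Rpl13a, Rps9 and Rps19 have a run and Rpl4 and Rplp0 have none that begins within 10 bases of the start.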

How the data were processed

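Per the labels' processing notes, reads were aligned with GSNAP (version 2015-09-29) to mm10 and counted with HTSeq (version 0.5.3p3). The authors deposited raw counts per gene and cell. Totals and tests leave out 92 spike-ins and 5 lines that name no gene (77.6% of counts). No read was listed as aligned to several places, and how such reads were treated is not given in the sources used here. Another 4 columns could not be matched to a sample and stayed unused.

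Symbols, exons and coordinates are from GENCODE M21. Pools are the replicates: p-values measure the spread between 3 pools, taken as the 3 mice. Sums of at least 3 cells per class and pool were fitted with edgeR 4.0.16 (filterByExpr, TMM, pool as a block, false discovery rate 0.05, hormone genes left out). Deviations of sums from their class mean correlated at 0.0315 to 0.401 within a pool (30 pairs, median 0.121). Scripts were tested on simulated data. Alternatives were DESeq2 1.42.0, other scalings, filters, cuts and totals, and each pool left out. Around the cuts, within 2-fold, lay 16 (Gcg), 4 (Gip), 6 (Pzp) and 27 (Cck) cells. No doublet caller was run.

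Members and lists were chosen with earlier results of these data known. Named members are the 5 with the largest called changes per comparison, the 5 highest and 5 lowest per length, paralogs, Rplp0, Rplp1, Rplp2 and Rpsa; of other lists, at most 3 called genes per comparison. Other members named were chosen after their values were seen. Some items are not reported here.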

Additional observations from a re-analysis of the deposited data

Results flagged for a closer look

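The ribosomal protein share of Cck under 1000 cells relative to the hormone classes went in opposite directions in the deep and the shallow pools. The log2 ratio was 1.11 in the deep pool and -1.30 and -0.29 in the shallow pools. Without cells of stem or cell cycle genes it was 0.36 in the deep pool and -2.11 and -0.85 in the shallow pools. Without Slc34a2, CT010467.1 and antibody genes it was positive in each pool (0.94 in the deep pool, 0.49 and 0.85 in the shallow pools). The difference between pools was not tested, and the sums hold 6 cells in the deep pool against 20 and 23.

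Reads on 268 genes named as ribosomal protein pseudogenes (-ps), which the comparisons leave out, came to 14.6% of the number of reads on the members (15.6% in pool SLX-11175, 16.5% in pool SLX-11179 and 14.5% in the deep pool). Of these genes, 244 had a read, and 17 had more reads than were listed for the gene they are named for. The 17 include Rpl48-ps1 with 12 reads, whose parent name Rpl48 is not among the members and had 0 reads listed. Rpl14-ps1 had 13077 reads against 9095 for Rpl14, Rpl10a-ps1 7086 against 3392 for Rpl10a, and Rps13-ps2 5748 against 868 for Rps13.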

How the results depend on the processing

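The mean log2 ratio of the share of Gip 10000+ to Gcg 10000+ cells over pools was negative in each alternative tried, though single pools could differ (pool SLX-11179 with 1 cut at a time). Some of these means lack a pool that held under 3 Gip 10000+ cells. This was SLX-11175 with a higher minimum of reads (2 cells) and without cells of 50% or more Slc34a2 reads (0 cells). It was SLX-11179 without cells of 100 CPM or more of immune genes (1 cell). Against Pzp 100+ cells the share of Gip 10000+ cells stayed below too: the log2 ratio was -1.13 with cells thinned to 20000 reads, -1.11 with hormone genes in the total and -0.33 without Slc34a2, CT010467.1 and antibody genes. The ratio of Pzp 100+ to Gcg 10000+ cells turned positive at lower cuts (0.0356), without cells of 100 CPM or more of immune genes (0.14), with hormone genes in the total (0.14) and over members with at least 50% unique sequence (0.00025), and ran from -0.28 to 0.13 when each pool was left out in turn (highest without pool SLX-11175). The ratio of Cck under 1000 cells to the hormone classes turned positive with a higher minimum of reads per cell (0.41), thinned cells (0.11), hormone genes in the total (0.32), without cells of 10000 CPM or more of immune genes (0.60), without Slc34a2, CT010467.1 and antibody genes (0.76) and without cells of 50% or more Slc34a2 reads (0.43). It was -1.71 by the median over cells and -0.87 without cells of stem or cell cycle genes. With each pool left out it ran from -0.80 without pool SLX-9703 to 0.41 without pool SLX-11175. With a higher minimum of reads and without cells of 50% or more Slc34a2 reads, pool SLX-11175 had no Gip 10000+ sum. Whether the positive values of those settings come from the filter or from the loss of this sum was not tested.

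Against 8 members called in Cck under 1000 cells, the count was 1 at 10% mitochondrial reads (Rps4l, lower, which is not one of the 8; 241 of 11036 genes called), 0 by library size (1361 of 11092 genes), 0 with hormone genes in library sizes (812 of 10720), 0 without cells of stem or cell cycle genes (592 of 10763), 4 without Slc34a2, CT010467.1 and antibody genes by library size (684 of 10617), 5 without a filter on low counts (2071 of 31156), 5 with only these classes in the fit (675 of 12786) and 21 with DESeq2 (1604 of 11092). It was 0 to 1 with each pool left out: 0 without pool SLX-9703 and 1 (Rpl4) without either shallow pool. Without the pool as a replicate block it was 8 (666 of 11092 genes). It was 8 as well without cells of 10000 CPM or more of immune genes (584 of 10788), which kept all 6 deep-pool cells of the class. The same count came without cells of 50% or more Slc34a2 reads (928 of 12611). In these last settings the 8 were not the same genes. The 3 comparisons among hormone classes gave 0 called members in each alternative, where all genes called ranged widely. For Pzp against Gcg they were 3, or 72 with DESeq2, and for Gip against Gcg 51 or 425. For Gip against Pzp they were 171 or 647. Without pool SLX-11175 they were 0, 4 and 16. Pzp against Gcg also had 0 at 10% mitochondrial reads, without pool SLX-11179 and without cells of 50% or more Slc34a2 reads. Where so few genes are called, 0 members says nothing about the members. The immune limit of 100 CPM left under 3 Cck under 1000 cells per pool and gave no value. The limit of 10% mitochondrial reads left 16, 17 and 3 of the 20, 23 and 6 Cck under 1000 cells. From the Gcg, Gip and Pzp classes it took cells in the deep pool only, leaving 18 of 19, 8 of 10 and 27 of 28. Settings that leave out antibody-rich, Slc34a2-rich or stem and cell cycle cells, those genes, or members by uniqueness were chosen after seeing the data. The cause of these shifts was not tested.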

Other observations

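Cck 1000+ only cells enter no comparison, though their sums are in the edgeR fit of all classes. They had members at 0.224%, 0.241% and 0.281% of the reads without hormone genes in the 3 pools, the deep one last (0.249 ± 0.0295%, SD, n = 3 pools). Gip 10000+ cells had 0.156%, 0.251% and 0.316%, so that the means over pools are close and the values in single pools are not in the same order. In the deep pool 4 of the 24 Cck 1000+ only cells had under 0.1%. Without Slc34a2, CT010467.1 and antibody genes, Cck 1000+ only sums had 0.515%, 0.481% and 0.429% (0.475 ± 0.0431%). Gip 10000+ sums then had 0.513%, 0.444% and 0.567% (0.508 ± 0.0615%). A low share was thus not particular to Gip 10000+ cells.

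Over cells, the shares of large and small subunit genes went together in each pool (Spearman's rho 0.92, 0.89 and 0.863 over 75, 87 and 88 cells), while the mitochondrial share of a cell had rho of 0.0253, 0.13 and -0.252 with the member share.

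Rps4l, annotated as a transcribed processed pseudogene, went against most members in Cck under 1000 cells. It had 2.35, 0 and 24.7 CPM there and 18.9 to 86.4 CPM in the Gcg and Pzp sums, with 6.69, 6.88 and 15.4 CPM in the Gip sums. The total of this scale holds antibody genes, with 59.7% and 46.7% of the reads in the shallow Cck under 1000 sums. Members there therefore look lower by CPM. The difference did not pass the test (log2 fold change -1.46 ± 0.80, adjusted p 0.32 by edgeR). With cells above 10% mitochondrial reads left out it did (log2 fold change -5.67 ± 1.18, adjusted p 0.0189 by edgeR). The class then held 16, 17 and 3 cells in the 3 pools.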
